A study of Mus musculus with 7 samples.

Results

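The genes described here are 10 dual-specificity phosphatases that act on, or are counted among the regulators of, mitogen-activated protein (MAP) kinases: Dusp1, Dusp2, Dusp3, Dusp4, Dusp5, Dusp6, Dusp7, Dusp10, Dusp16 and Dusp22. They are 10 of the 24084 genes listed in at least 1 of 7 RNA libraries, and all 10 passed the filter on low counts. The group was picked because Dusp2 was high in the libraries of Dicer1-deleted mice. The difference between the groups of libraries therefore chose the genes, and for them it is given as a description with standard errors and no p-value. Counts of calls among the 10 are printed only beside the share of all genes called.

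The cells were tumor-associated macrophages, sorted by flow cytometry as F4/80+ cells from established tumors of Lewis lung carcinoma (LLC), a mouse lung cancer line injected under the skin. In 3 libraries the mice were LysM-Cre;Dicer–/–, with a Cre recombinase at both copies of the lysozyme M locus acting on 2 lox-flanked copies of Dicer1. The 4 control libraries came from LysM-Cre; Dicer+/+ mice, homozygous for this Cre too, in which Dicer1 was not lox-flanked. The enzyme that Dicer1 encodes matures microRNAs by cutting their precursors, and the study asked how its loss affects macrophages in tumors. The lysozyme M locus is active in macrophages and neutrophils, so the deletion was not limited to the sorted cells. Age, sex and strain background are not given in the labels used here, and neither is the number of mice behind each library, so p-values measure only the spread between these libraries, which may be partly technical.

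MAP kinases (ERK, JNK and p38) are switched on when upstream kinases phosphorylate a threonine and a tyrosine in their activation loop, and dual-specificity phosphatases switch them off by removing both phosphates. Dusp1, Dusp2, Dusp4 and Dusp5 encode inducible nuclear enzymes, Dusp6 and Dusp7 encode cytoplasmic enzymes that prefer ERK, and Dusp10 and Dusp16 encode enzymes that prefer JNK and p38. Dusp3 and Dusp22 encode small enzymes without the kinase-binding domain of the others. In macrophages several of these genes are transcribed within the inflammatory response and limit it, and their messenger RNAs are short-lived.

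Because Dicer1 makes microRNAs, the 3′ untranslated regions of the 10 genes were searched for 7-base matches to the seeds (bases 2 to 8) of 10 microRNAs known to be present in myeloid cells. The search found 17 matches in 8 of the genes, and none in Dusp4 and Dusp6. The matches of the 3 genes whose nuclear enzymes are described first below are shown with 30 bases of the transcript strand, the match in capitals, and with the mature microRNA, its seed in capitals (GENCODE M21 and RefSeq, GRCm38). The Dusp2 match lies in an exon at chr2:127338226-127338255, the Dusp5 match at chr19:53542314-53542343, both on the plus strand, and the Dusp1 match at chr17:26505782-26505811 on the minus strand.
Dusp2 site: ttatttgtgttcAACTGACatttaacgctc
miR-223-3p: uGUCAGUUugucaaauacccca
Dusp5 site: taaacccatgtgAATGTGAagagaagcagt
miR-23a-3p: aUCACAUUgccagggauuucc
Dusp1 site: ttttgtgtttgcGTACTGTactatcttgta
miR-101a-3p: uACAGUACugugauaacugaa
All 3 sites are followed by an A, the base that extends a seed match, as were 7 of the 17 matches in all. Dusp7 held 1 match, not followed by an A, and Dusp22 held 4, of which only the let-7a-5p match was. Such matches are common: among 12118 tested genes with an annotated 3′ untranslated region, 9.24% held the miR-223-3p match, 16.5% the miR-23a-3p match and 11.3% the miR-101a-3p match. Over the 10 microRNAs this share ran from 6.79% (miR-142a-3p) to 24.5% (miR-16-5p). The share of genes with a match to any of the 10 was not counted, so nothing is read from the 8 genes with a match. The miR-223-3p match was also present in Dusp3 and, at 2 places, in Dusp10, in both of which the groups overlapped. MicroRNAs were not measured, and a match is not evidence that a site was used.

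Promoters were available for 9 of the 10 genes (RefSeq, GRCm38.p6, 250 bases before to 50 after the gene start given there), but not for Dusp4. Both strands were searched for 5 motifs, the CRE with the letters TGACGTCA, which factors of the CREB family bind, the AP-1 motif with TGANTCA, the E-box with CACGTG, the GC box with GGGCGG and the TATA box with TATAAA. A GC box was found in 8 of the 9 promoters, in all but that of Dusp6, and in 35.7% of 32851 promoters of the same length. The only matches to the other motifs lay in Dusp2 and Dusp1, and the 30 bases around them are shown with the motif in capitals.
Dusp2 E-box, chr2:127336038-127336067, plus strand: cagccagagtccCACGTGaagccgcggggg
Dusp1 CRE, chr17:26508597-26508626, minus strand: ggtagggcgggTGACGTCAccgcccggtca
The Dusp2 E-box begins 109 bases before the start and the Dusp1 CRE 143 bases before it, and Dusp1 also has an E-box, which begins 126 bases before the start. Neither of the motifs shown overlaps a GC box. E-box letters were present in 7.15% of all promoters and CRE letters in 1.79%, and a match is a description of these letters only.

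Libraries held 43.0 to 51.2 M uniquely placed reads, and levels are given as CPM, the count scaled to a common library total, after TMM scaling, a correction for library composition. Dicer1 itself was at 7.85, 6.86 and 7.86 CPM in the Dicer1-deleted libraries and at 15.7, 15.8, 18.6 and 17.1 CPM in the controls, lower in every deleted library (DESeq2 adjusted p = 4.96e-05, edgeR adjusted p = 0.150), although a whole-gene count also includes exons outside the lox sites. The macrophage genes Adgre1, which encodes F4/80, and Csf1r, the receptor of the growth factor M-CSF, were at 233 to 1072 and 494 to 809 CPM over the 7 libraries. Both were lowest in Dicer1-deleted replicate 2, in which the macrophage genes Cd68, Fcgr1 and C1qa were highest. Dicer1-deleted replicate 2 stood apart, with a mean correlation of 0.90 with the other 6 libraries against 0.93 for each of the rest. The libraries also split by gene length: relative to the mean of all, longer genes were low in Dicer1-deleted replicate 2 and control replicates 1 and 2 (rank correlation with length from -0.37 to -0.32 over 13268 genes) and high in the other 4 libraries (0.29 to 0.36). Both genotypes occur in each of these 2 sets. The titles also carry a code, L4 for Dicer1-deleted replicates 2 and 3 and control replicate 2 and L5 for the rest, whose meaning is not stated.

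Dusp2 was the member with the largest difference, and Dusp5 the only other one that was higher in every Dicer1-deleted library. Dusp7 and Dusp22 were lower in every deleted library, by smaller amounts. The other 6 genes, Dusp1, Dusp3, Dusp4, Dusp6, Dusp10 and Dusp16, had overlapping groups. Over all 16226 genes tested, the groups did not overlap in 9.31%, with 3.86% higher and 5.44% lower in the deleted libraries. edgeR's quasi-likelihood test with Benjamini-Hochberg adjustment called 4 genes of all those tested (0.0247%) and none of the 10, of which 4 had an unadjusted p under 0.05 (8.01% of all genes had). DESeq2 called 405 of 16215 genes (2.5%), of which Dusp2 is the only member, and limma-voom called none of the 10. Because the contrast chose the genes, nothing is read from these counts.

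Dusp2, an inducible nuclear phosphatase of ERK and p38 that is made mainly in blood and immune cells, was at 26.7, 58.6 and 11.7 CPM in Dicer1-deleted replicates 1 to 3. In control replicates 1 to 4 it was at 3.65, 3.90, 5.80 and 6.97 CPM. Every deleted library was above every control, but the deleted libraries themselves spanned a wide range, with replicate 2 highest and replicate 3 lowest. The means were 32.4 ± 23.9 CPM (SD, n = 3) and 5.08 ± 1.58 CPM (SD, n = 4), and the log2 fold change was 2.67 ± 0.50 (SE). Without Dicer1-deleted replicate 2 it was 1.91, a change of the fold itself by more than 1.5 times. Among the 10317 genes with a mean of at least 5 CPM, Dusp2 had the 11th highest log2 fold change. The gene lies at chr2:127336159-127338376 on the plus strand and overlaps no other annotated gene, so the unstranded counts cannot hold reads of an antisense partner in this annotation.

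Dusp5, a nuclear phosphatase specific for ERK, was at 41.1, 95.3 and 43.5 CPM in the Dicer1-deleted libraries. In the controls it was at 22.5, 25.2, 35.9 and 26.8 CPM. The highest library was again Dicer1-deleted replicate 2, and the gap between the lowest deleted and the highest control library was small, 41.1 against 35.9 CPM. The log2 fold change was 1.12 ± 0.34 (SE), and 0.61 without Dicer1-deleted replicate 2.

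Dusp1, the best-known inducible member, which acts mainly on p38 and JNK and restrains cytokine production in macrophages, was abundant in every library. It was at 267, 566 and 250 CPM in the Dicer1-deleted libraries and at 360, 444, 295 and 350 CPM in the controls. Replicate 2 was the highest of all 7 libraries, while the other deleted libraries were the lowest. The group means were nearly equal and the log2 fold change was -0.00 ± 0.35 (SE), but without Dicer1-deleted replicate 2 it was -0.49, and the other deleted libraries then lay below all controls. The gene body overlaps Ergic1 on the other strand by 640 bases, and Ergic1 was at 37.5 to 68.7 CPM.

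Dusp4, a nuclear phosphatase related to Dusp1, was at 2.62, 1.73 and 2.52 CPM in the Dicer1-deleted libraries and at 5.20, 1.44, 7.07 and 9.48 CPM in the controls. Control replicate 2 was the lowest of all libraries, and the other 3 controls were above every deleted library. The log2 fold change was -1.34 ± 0.56 (SE), and -0.51 with the L code as a covariate. Within the L4 libraries the deleted ones were higher than the control (1.73 and 2.52 against 1.44 CPM), and within the L5 libraries lower (2.62 against 5.20 to 9.48 CPM).

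**Figure D1:**
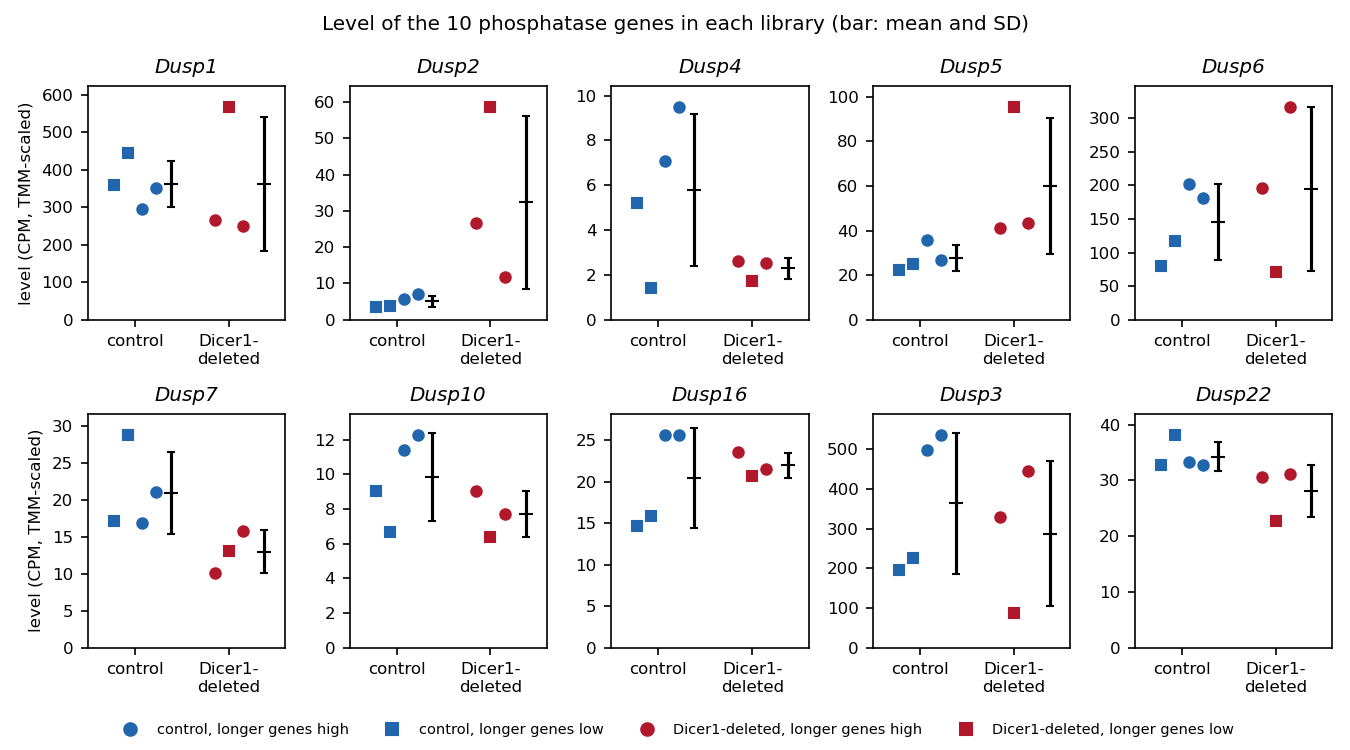
Level of each of the 10 genes (CPM, TMM-scaled, linear axis from 0) in 4 control (blue) and 3 Dicer1-deleted (red) libraries, 1 symbol per library, with the mean and SD at the right of each group; squares are the libraries in which longer genes are low. In the Dusp2 panel the deleted libraries sit at 11.7 to 58.6 CPM and the controls at 3.65 to 6.97 CPM.

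Of the cytoplasmic ERK phosphatases, Dusp6 showed no common direction and Dusp7 was lower in the deleted libraries. Dusp6, which is transcribed downstream of ERK and inactivates it, was at 196, 71.5 and 316 CPM in the Dicer1-deleted libraries and at 79.7, 118, 203 and 181 CPM in the controls. The deleted group held both the lowest and the highest library, and the log2 fold change was 0.42 ± 0.49 (SE). Its sign depended on single libraries, with 0.82 without Dicer1-deleted replicate 2 and -0.12 without replicate 3. Dusp7, a close relative of Dusp6, was at 10.1, 13.1 and 15.8 CPM in the Dicer1-deleted libraries. In the controls it was at 17.1, 28.8, 16.8 and 21.1 CPM. The log2 fold change was -0.69 ± 0.29 (SE). The groups did not overlap, although 15.8 and 16.8 CPM are close neighbours.

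The phosphatases of JNK and p38 differed little between the groups. Dusp10 was at 9.05, 6.40 and 7.73 CPM in the Dicer1-deleted libraries and at 9.06, 6.64, 11.4 and 12.3 CPM in the controls. Its log2 fold change was -0.35 ± 0.30 (SE). Dusp16 was at 23.6, 20.7 and 21.6 CPM in the Dicer1-deleted libraries and at 14.7, 15.8, 25.6 and 25.6 CPM in the controls. All deleted libraries lay inside the range of the controls, which fell into a low and a high pair, and the log2 fold change was 0.10 ± 0.28 (SE).

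Of the small enzymes, Dusp3, which dephosphorylates ERK and JNK, was at 330, 86.4 and 444 CPM in the Dicer1-deleted libraries. In the controls it was at 195, 226, 498 and 536 CPM, and the log2 fold change was -0.34 ± 0.56 (SE). The spread within each group was larger than the difference between them, and without Dicer1-deleted replicate 2 the value was 0.09. Dusp22, known for its action on JNK signaling and in T cells, had the lowest coefficient of variation of the 10 over the controls, 7.60%. It was at 30.6, 22.7 and 31.1 CPM in the Dicer1-deleted libraries and at 32.8, 38.2, 33.4 and 32.7 CPM in the controls, and its log2 fold change was -0.28 ± 0.23 (SE). The groups did not overlap, but 2 deleted and 3 control libraries lay between 30.6 and 33.4 CPM.

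**Figure D2:**
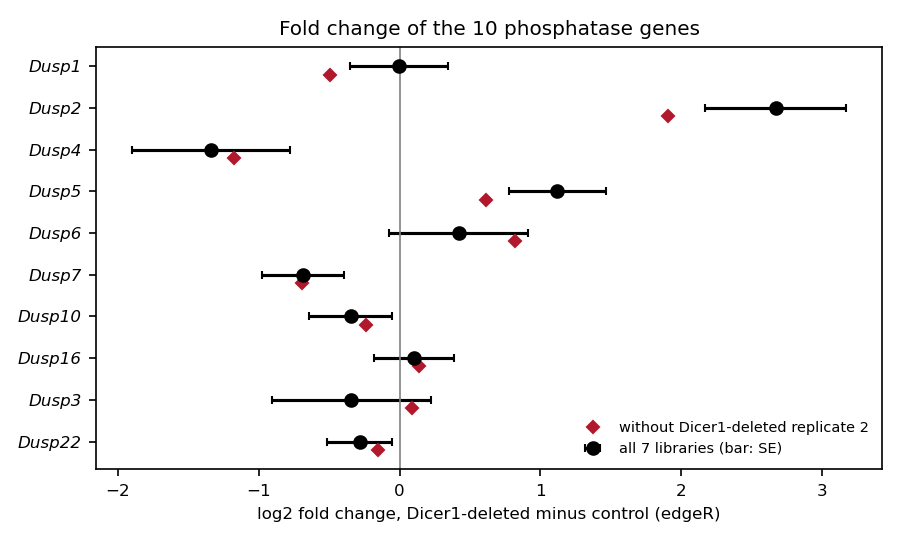
Log2 fold change, Dicer1-deleted minus control, from edgeR for the 10 genes with all 7 libraries (black, bars are the SE) and without Dicer1-deleted replicate 2 (red diamonds). Dusp2 is farthest to the right in both, at 2.67 and 1.91, while Dusp1 moves from -0.00 to -0.49 and Dusp3 from -0.34 to 0.09.

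Across the 10 genes 4 log2 fold changes were positive and 6 negative, and their median was -0.14. Over all genes tested the median was 0.03, and 52.6% were positive. Summed over the 10, the level was 937 to 1145 CPM in the deleted libraries and 740 to 1202 CPM in the controls, so the summed levels overlapped. Without Dicer1-deleted replicate 2 the groups did not overlap in 5 of the 10 genes, with Dusp2 and Dusp5 higher and Dusp1, Dusp7 and Dusp22 lower. This smaller comparison separates more genes in general, 21.3% of all those tested.

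Levels of different genes were compared only per length, by the deposited RPKM values (reads scaled to gene length and library total). In the controls Dusp1 had the highest median, 130 RPKM, followed by Dusp3 at 80.4, Dusp6 at 51.9, Dusp22 at 19.4, Dusp5 at 10.2 and Dusp7 at 6.0 RPKM. Dusp10 at 3.42, Dusp16 at 2.63, Dusp2 at 2.43 and Dusp4 at 2.29 RPKM were lowest. The ranges over the controls overlapped for Dusp1 and Dusp3, for Dusp3 and Dusp6, and for each neighbouring pair among the last 4, although within each of the 4 control libraries Dusp3 was above Dusp6 and Dusp10 above Dusp16. The ranges of Dusp6, Dusp22, Dusp5, Dusp7 and Dusp10, taken in that order, did not overlap between neighbours. In the Dicer1-deleted libraries Dusp2 was at 13.4, 24.5 and 6.01 RPKM and moved from the ninth place by median to the sixth, above Dusp7. Dusp1 remained the most abundant by median at 98.9 RPKM, and Dusp4 the least at 0.94 RPKM.

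**Figure D3:**
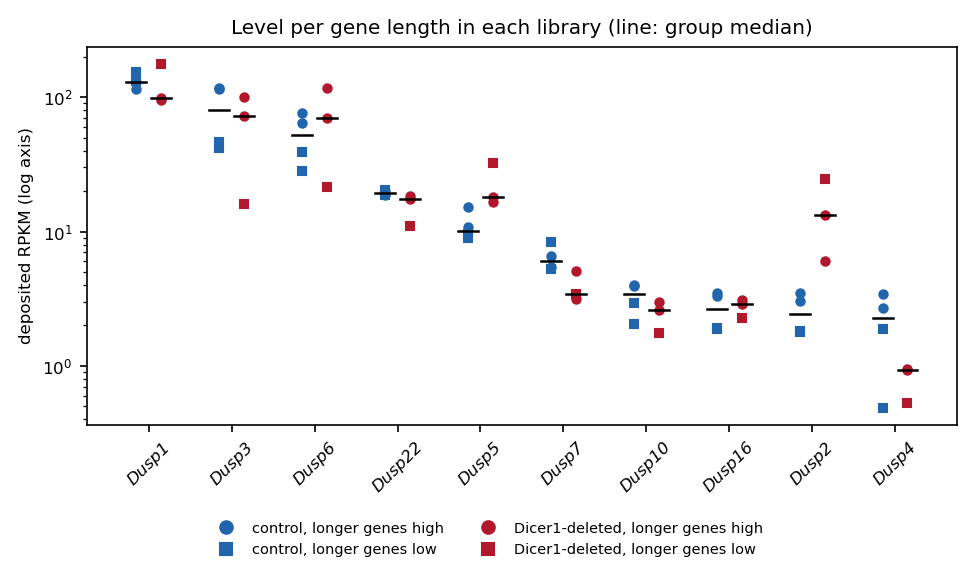
Deposited RPKM (log axis) of the 10 genes in each control (blue) and Dicer1-deleted (red) library, ordered by the control median; horizontal lines are group medians and squares the libraries in which longer genes are low. Dusp2 is ninth in the controls at a median of 2.43 RPKM and has a median of 13.4 RPKM in the deleted libraries.

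The split of the libraries by gene length ran through several of the members. Dusp1 was higher, and Dusp3, Dusp6 and Dusp16 were lower, in the 3 libraries in which longer genes were low than in the other 4, with no overlap between these sets. That is 4 of the 10 genes, and 34.6% of all genes tested separated these sets. The lengths implied by the deposited RPKM values were 7.85 kb for Dusp16, 4.68 kb for Dusp3, 2.87 kb for Dusp6 and 2.77 kb for Dusp1. The 6 members that did not separate the sets covered 1.79 kb (Dusp22) to 3.30 kb (Dusp7), a range that includes lengths above those of Dusp1 and Dusp6.

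Genotypes were also compared inside each set. Dusp2, Dusp5, Dusp7 and Dusp22, whose groups do not overlap over all 7 libraries, necessarily keep their direction in any such split, and only the sizes are informative. Dusp2 was at 58.6 against 3.65 to 3.90 CPM where longer genes were low, and at 11.7 to 26.7 against 5.80 to 6.97 CPM where they were high. Dusp5 was at 95.3 against 22.5 to 25.2 CPM and at 41.1 to 43.5 against 26.8 to 35.9 CPM. Dusp3 and Dusp10, whose groups overlapped over all libraries, were lower in the deleted libraries in both sets. Dusp3 was at 86.4 against 195 to 226 CPM and at 330 to 444 against 498 to 536 CPM, while Dusp10 was separated by a small gap where longer genes were low, 6.40 against 6.64 to 9.06 CPM. In all, 6 of the 10 genes went the same way without overlap in both sets, and 22.3% of all genes tested did, in sets of so few libraries. Dusp1 and Dusp16 went in opposite directions, higher in the deleted library where longer genes were low and lower where they were high. With the sign of the length trend as a covariate, a fit added after the data were seen, the log2 fold change was 2.61 for Dusp2, 1.09 for Dusp5, -0.75 for Dusp3 and 0.08 for Dusp6. These sets hold 1 or 2 libraries per genotype, so no test was run inside them.

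**Figure D4:**
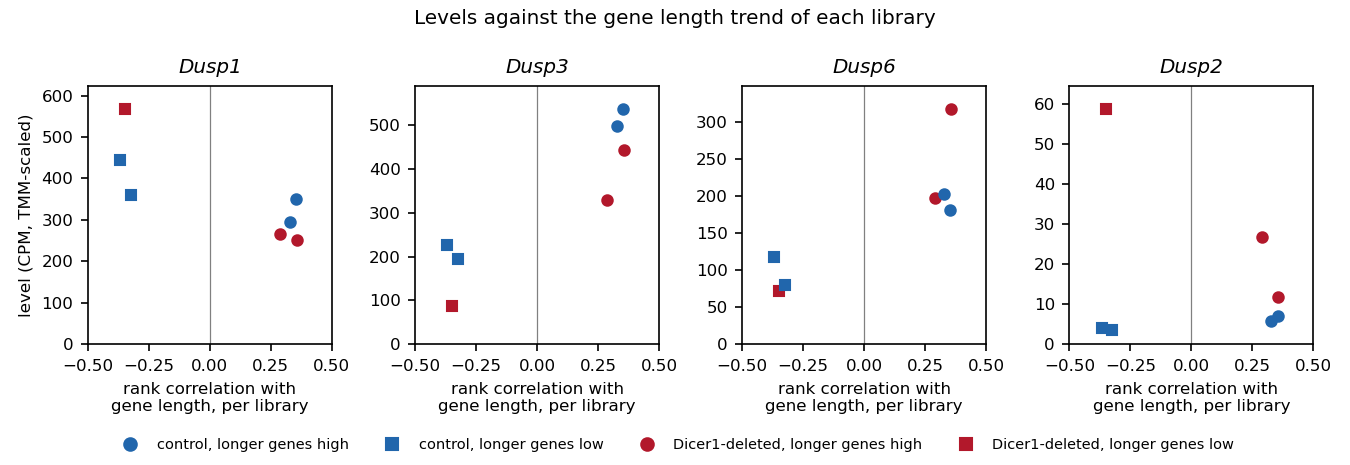
Level (CPM, TMM-scaled, from 0) of Dusp1, Dusp3, Dusp6 and Dusp2 against the rank correlation of each library's log ratio with gene length, for control (blue) and Dicer1-deleted (red) libraries. Dusp3 is at 86.4 to 226 CPM in the 3 libraries on the left and at 330 to 536 CPM in the 4 on the right, while the highest Dusp2 level, 58.6 CPM, is on the left.

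The sorted cells were checked for markers of other cells, since bulk RNA cannot tell apart fewer cells of a type and less RNA per cell. edgeR called no marker of the 6 lists, so the calls below are those of DESeq2, with its adjusted p. The 9 macrophage markers summed to 10016 to 16343 CPM in the deleted and 8420 to 16072 CPM in the control libraries, and 1 was called, Lyz2, the gene of the Cre locus, which was at 50.7 to 67.2 CPM in the deleted and 103 to 212 CPM in the control libraries (adjusted p = 0.0144).

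Dusp2 is known from T and B cells too, and single markers of lymphocytes differed between the groups. The 9 B cell markers summed to 144 to 191 CPM in the deleted libraries against 41.4 to 86.0 CPM in the controls, without overlap. Of 6 tested, Ighm (adjusted p = 0.00914), Bank1 (2.48e-05) and Cd79b (0.0161) were called as higher, and make up most of the sum. Cd79b was at 15.2, 27.3 and 13.4 CPM in the deleted libraries, in the same order as Dusp2. In control replicates 1 to 4 it was at 7.25, 9.47, 7.47 and 5.29 CPM, not in the order of Dusp2, which was highest in control replicate 4. Among the deleted libraries Bank1 was lowest in replicate 2. Pax5, which encodes a defining factor of B cells, was at 0.05 CPM in 1 deleted library and 0 in the other 6 libraries. The 16 T and NK cell markers summed to 13.0 to 27.4 CPM in the deleted libraries and 13.6 to 15.8 CPM in the controls, but the sum holds opposite changes. Of 14 tested, 11 had a positive log2 fold change, the median was 1.14, and 6 had an edgeR unadjusted p under 0.05. Over all genes tested, 52.6% had a positive log2 fold change and 8.01% such a p. Nkg7 was called as higher (2.64 to 6.02 against 0.67 to 1.73 CPM, adjusted p = 0.0410) and Cd2 as lower (1.32 to 1.88 against 3.90 to 7.66 CPM, adjusted p = 0.000743). Cd3g, of the T cell receptor complex, was at 1.29 to 1.66 against 0.09 to 0.73 CPM, without overlap but not called (adjusted p = 0.199). The part of these markers in the Dusp2 level was not tested.

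Single markers of other myeloid cells differed as well, as did Pecam1 of the tumor and stroma list. The 10 dendritic markers summed to 12.9 to 15.4 CPM in the deleted and 9.25 to 142 CPM in the control libraries, where Cd209a in control replicates 1 and 3 (38.1 and 109 CPM) makes up most of the high sums. Xcr1 (2.64 to 5.51 against 0.47 to 1.504 CPM, adjusted p = 0.000756) and Batf3 (1.83 to 4.73 against 0.55 to 1.31 CPM, adjusted p = 0.0191) were called as higher, and Ccr7 as lower (0.43 to 1.47 against 1.62 to 25.2 CPM, adjusted p = 0.00999). Of 9 dendritic markers tested, 4 log2 fold changes were positive and 5 negative, with a median of -0.23. Clec9a was higher without overlap (0.79 to 1.22 against 0.04 to 0.50 CPM). Zbtb46 (0.46 to 1.75 against 1.08 to 3.90 CPM) and Flt3 (0 to 0.55 against 0 to 1.34 CPM) had negative log2 fold changes with overlap. None of these genes was called. The 10 neutrophil markers found summed to 254 to 315 against 177 to 627 CPM, where Mmp9 in control replicates 1 and 3 (366 and 537 CPM) makes up most of the high sums. Mmp9 was at 75.0 to 97.1 CPM in the deleted libraries and was not called. Mmp8 was called as higher (105 to 147 against 31.1 to 62.5 CPM, adjusted p = 0.00582), and Ly6g was at or near 0 throughout. The 11 tumor and stroma markers summed to 51.0 to 84.4 CPM in the deleted and 9.38 to 32.7 CPM in the control libraries. Pecam1 makes up most of the sum in the deleted libraries (36.3 to 69.6 CPM) but not in the controls (3.23 to 11.9 CPM). Vessel cells and some leukocytes express Pecam1, the only gene of this list that was called (adjusted p = 2.67e-05). Of the epithelial markers, Epcam was at or near 0 throughout, and Krt8, Krt18 and Cdh1 were not called.

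Over the 7 libraries the genes whose log2 level ran most like that of Dusp2, among those with a mean of at least 5 CPM, were Tgm2 (Pearson r = 0.99), Por (0.98), Zkscan6 (0.97), S1pr2 (0.97) and Hk3 (0.97). Tgm2, which encodes a transglutaminase, was at 238, 330 and 190 CPM in the deleted libraries and at 137, 132, 151 and 174 CPM in the controls, with the same highest and lowest deleted library as Dusp2. Hk3, a hexokinase of blood cells, was at 124, 138 and 69.2 CPM against 34.3, 40.3, 43.4 and 67.4 CPM. All 5 were picked from 10317 genes over 7 points that also share the group difference, so the correlations describe these libraries only. Of the other 8 members at this level, which leaves out Dusp4, Dusp5 ran most like Dusp2 (0.92), and Dusp22 (-0.89) and Dusp7 (-0.75) ran opposite to it.

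The genes around the phosphatases were tested as 8 lists, with 106 members past the filter on low counts. edgeR called none of the 106 at an adjusted p under 0.05, with 10 at an unadjusted p under 0.05, limma-voom called none, and DESeq2 called 3, namely Dusp14, Rps6ka4 and Spry1. These are 9.43% at the unadjusted p and 2.83% by DESeq2, near the shares over all genes, 8.01% and 2.5%. The counts of positive and negative log2 fold changes below stand beside 52.6% positive over all genes tested. Each of the DESeq2 calls was lost in most fits that left out 1 library.

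Among 17 other dual-specificity phosphatases 7 log2 fold changes were positive and 10 negative, with a median of -0.15. Dusp14, a small phosphatase known for restraining T cell receptor signaling, fell by 2.02 on the log2 scale in DESeq2 (adjusted p = 0.0443, edgeR adjusted p = 0.324). Its level was 0.21, 0.66 and 0.26 CPM in the deleted libraries and 1.51, 0.85, 1.75 and 2.05 CPM in the controls. Groups did not overlap, but the level was low throughout, and the DESeq2 call was lost without Dicer1-deleted replicates 1 or 3 or control replicates 1, 3 or 4, with adjusted p up to 0.279. Dusp18, a phosphatase found in mitochondria, was at 3.03, 4.17 and 5.21 CPM against 6.58, 8.39, 8.93 and 23.2 CPM (log2 fold change -1.51 ± 0.48, edgeR adjusted p = 0.361), and at -0.95 without control replicate 4. Dusp23 was at 3.51 to 6.89 CPM in the deleted and 5.03 to 10.5 CPM in the control libraries (edgeR adjusted p = 0.810).

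The MAP kinases themselves, the substrates of these phosphatases, had no member called by any of the 3 tools. Of the 10 tested, 7 log2 fold changes were positive and 3 negative, and the median was 0.09. Mapk3, an ERK gene, had a log2 fold change of 0.12 ± 0.33 (SE), Mapk14, the main p38 gene, 0.10 ± 0.23, and Mapk8, a JNK gene, -0.03 ± 0.26. The other p38 genes were at low levels and went apart, with log2 fold changes of 1.25 ± 0.54 for Mapk13 (1.54 to 4.12 against 0.49 to 1.42 CPM, without overlap), -1.58 ± 0.63 for Mapk11 and -1.99 ± 1.0 for Mapk12 (edgeR adjusted p = 0.592, 0.529 and 0.714). Mapk9, the other JNK gene tested, was at 26.3 to 33.1 CPM in the deleted and 19.0 to 30.9 CPM in the control libraries (log2 fold change 0.26 ± 0.25, edgeR adjusted p = 0.989). Mapk6, an atypical MAP kinase, had a log2 fold change of 0.14 ± 0.52 (edgeR adjusted p = 0.996), with a sign that turned in several of the alternatives.

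Of 19 upstream kinases 13 log2 fold changes were positive and 6 negative, with a median of 0.11. Map3k3 was at 31.1, 44.6 and 36.8 CPM in the deleted libraries and 27.9 to 30.3 CPM in the controls, without overlap (log2 fold change 0.35 ± 0.23, edgeR adjusted p = 0.859). Map3k5, which relays oxidative stress to JNK and p38, had a log2 fold change of 0.37 ± 0.27 (edgeR adjusted p = 0.924).

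The targets of MAP kinases had the highest median of the lists, 0.17, with 12 of 17 log2 fold changes positive. Rps6ka4, a nuclear kinase activated by ERK and p38, was at 10.96, 19.3 and 13.8 CPM in the deleted libraries and at 6.498, 6.96, 7.36 and 8.66 CPM in the controls, without overlap. DESeq2 called it as higher (log2 fold change 1.02, adjusted p = 0.0440), edgeR did not (0.99 ± 0.27, adjusted p = 0.282). The DESeq2 call was lost in 6 of 7 fits without 1 library, that is in all but the one without Dicer1-deleted replicate 1, with adjusted p up to 0.265 and a log2 fold change of 0.75 without Dicer1-deleted replicate 2. Mapkapk2 and Mapkapk3 encode kinases that p38 activates and that stabilize cytokine messenger RNAs. Mapkapk3 was at 31.3, 43.3 and 35.2 CPM in the deleted libraries and at 14.6, 18.4, 26.4 and 20.6 CPM in the controls (log2 fold change 0.87 ± 0.27, edgeR adjusted p = 0.353). Mapkapk2 was at 36.2, 69.9 and 50.0 CPM against 29.98, 40.2, 26.4 and 31.0 CPM, with overlap (0.71 ± 0.29, edgeR adjusted p = 0.550).

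Feedback inhibitors of ERK signaling numbered 7, with 2 positive and 5 negative log2 fold changes and a median of -0.22. Spry1, which blocks growth factor signaling upstream of ERK, fell by 2.91 on the log2 scale in DESeq2 (adjusted p = 0.0380, edgeR adjusted p = 0.388). It was at 0.46, 0.51 and 0.38 CPM in the deleted libraries and at 4.23, 0.54, 8.42 and 0.64 CPM in the controls. Control replicates 1 and 3 carried the difference, and they are also the controls with the most dendritic marker signal (51.4 and 142 CPM, against 9.56 and 9.25 CPM in the others), whose part was not tested. The log2 fold change was -1.98 without control replicate 3 (adjusted p = 0.365), and the call was also lost without any one of the Dicer1-deleted libraries. Errfi1, an inhibitor of the EGF receptor family, was at 25.9, 43.0 and 43.1 CPM in the deleted libraries and at 89.9, 50.1, 103 and 84.6 CPM in the controls, without overlap (log2 fold change -1.13 ± 0.33, edgeR adjusted p = 0.308). Spry2 was at 10.1 to 25.2 CPM against 14.8 to 38.6 CPM (edgeR adjusted p = 0.996).

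Other phosphatases of MAP kinases numbered 5 past the filter, 1 with a positive and 4 with a negative log2 fold change, with a median of -0.23. Ppm1a, a serine and threonine phosphatase, had a log2 fold change of -0.33 ± 0.24 (edgeR adjusted p = 0.924), and Ptpn7, a tyrosine phosphatase of blood cells, one of -0.23 ± 0.27 (edgeR adjusted p = 0.996).

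Immediate early genes, which MAP kinases switch on within minutes and which also respond to cell sorting, had 9 positive and 12 negative log2 fold changes with a median of -0.04. Ier5 was at 22.5, 64.9 and 20.7 CPM in the deleted libraries and at 21.5, 26.4, 16.2 and 16.0 CPM in the controls, with 1 deleted library, replicate 2, above the rest (edgeR adjusted p = 0.705). Klf6 was at 750, 424 and 620 CPM against 725, 694, 1115 and 1383 CPM (log2 fold change -0.71 ± 0.35, edgeR adjusted p = 0.703). Fos had a mean of 1034 CPM in the deleted and 1526 CPM in the control libraries, without overlap (edgeR adjusted p = 0.672). Etv5 went the other way, also without overlap, at 39.4 to 47.3 CPM in the deleted and 25.7 to 34.0 CPM in the control libraries (edgeR adjusted p = 0.679). Heat shock genes, a second sign of handling stress, had 6 positive and 4 negative log2 fold changes and a median of 0.08. Hspa8 was at 1394, 725 and 1042 CPM against 1670, 1164, 1718 and 1973 CPM (edgeR adjusted p = 0.732), and Dnajb1 at 29.6 to 46.2 CPM against 11.9 to 47.7 CPM (edgeR adjusted p = 0.982).

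**Figure D5:**
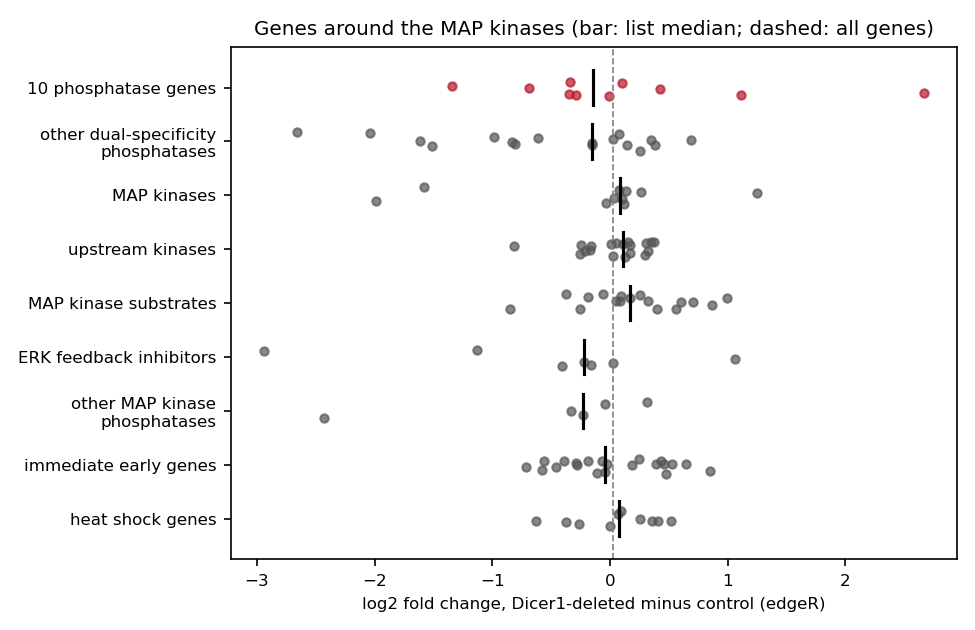
Log2 fold change, Dicer1-deleted minus control, of each tested gene in the 10 phosphatases (red) and the 8 lists around them (grey), with list medians as bars and the median of all genes, 0.03, dashed. The list medians lie between -0.23 and 0.17, and Dusp2 is the point farthest to the right at 2.67.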

How the data were processed

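RNA of 7 samples was amplified from 2 ng with the SMARTer ultra low kit and made into unstranded Nextera XT libraries, sequenced as 2 x 50 cycles, per the labels' protocols. Bowtie2 is named, without a version, per the submitters' processing notes. No build, annotation or counter is given in the sources used here. Per the file headers the authors deposited unique read counts, expected counts, which add multiply placed reads, and RPKM per Ensembl gene. Unique counts were even throughout, so both mates were counted, and 31124 values of unlisted genes were set to 0. Of 24084 IDs, 21798 matched a symbol of GENCODE M21.

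Dicer1-deleted (n = 3) and control (n = 4) libraries were compared in edgeR 4.0.16 (R 4.3.3) on the deposited unique counts, with filterByExpr (16226 genes), TMM, quasi-likelihood tests (F) and p-values adjusted by Benjamini-Hochberg, called at 0.05. SE is the absolute log2 fold change divided by the square root of F. PCR reads without molecular identifiers overstate precision. The biological coefficient of variation was 45.1%. Expected counts, rounded, were used in 1 alternative only.

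The members and lists were chosen with earlier results of these data known. Named genes are the members, Dicer1, genes of each list called by edgeR or DESeq2 (up to 4), filled up to 2 per list by the largest change among genes with a mean of at least 5 CPM, and the 5 genes most correlated with Dusp2 (log2 CPM, prior count 1). Mapk3, Mapk8, Mapk11 to Mapk14, single marker genes, Fos and Etv5 are named outside this rule, after their values were seen. Alternatives were DESeq2 1.42.0, limma-voom (limma 3.58.1), other size factors, other filters, a robust fit, the L code as covariate and leaving out each library. Added after seeing the data were the length trend as covariate, read pairs, DESeq2 without each library the groups without Dicer1-deleted replicate 2 and the genotypes inside the length sets. The workflow was tested on simulated data. Tables used Python 3.11.15 with pandas 2.3.3.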

Additional observations from a re-analysis of the deposited data

Results flagged for a closer look

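In the 4 control libraries, 1 value stood apart from the others for 2 of 29 genes examined, where chance gives about 1 in 20. Dusp22 was at 38.15 CPM in control replicate 2, and the next control was at 33.4 CPM. Dusp18 was at 23.2 CPM in control replicate 4, and the next control was at 8.93 CPM.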

How the results depend on the processing

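No paired analysis was possible because the labels give the groups no shared replicate numbers, and numbers in accession order pair nothing. Against 4 genes called by edgeR, DESeq2 called 405 (400 on read pairs), limma-voom 2, edgeR without a filter on low counts 42, with a filter of 10 CPM in 3 libraries 1, with the L code as covariate 0 and with the length trend as covariate 118. Leaving out 1 library gave 0 to 3 calls. Of the genes in the 8 lists, DESeq2 called 3, also on read pairs, and each other setting 0. The log2 fold change of Dusp2 was 1.91 to 3.07 over the alternatives, the low end without Dicer1-deleted replicate 2. The median of the members was -0.23 to 0.05, the high end with the filter of 10 CPM in 3 libraries. That filter drops Dusp4 and Dusp10. Dusp2 passes it only through the Dicer1-deleted libraries (11.7 to 58.6 CPM, against 3.65 to 6.97 CPM in the controls). The group difference thus helped choose the members behind this high end, and nothing is read from it. The log2 fold change of Mapk6, 0.14 with all libraries, was -0.11 to 0.49 without 1 library each, below 0 without Dicer1-deleted replicates 1 or 3 or control replicates 1 or 2, and -0.065 with the length trend as covariate. The cause was not tested. DESeq2 gave no adjusted p for Spry1 without control replicate 1. Dusp4 rests on 64 to 416 reads per library, and Dusp14 and Spry1 were at under 1 CPM in the deleted libraries.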
